A study of Mus musculus with 8 samples.

Results

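The Kruppel-like factor genes Klf2, Klf4, Klf6, Klf7, Klf9, Klf10, Klf13 and Klf16 were followed across 3 groups of layer IV samples of mouse visual cortex. They are 8 of the 17 Klf genes and of the 34980 genes in the count files. Their rows were taken by gene symbol, and the 8 were chosen with earlier results of these data known. For each gene the isoform with the most counts over all libraries stood for the gene. All 8 passed the filter on low counts and were tested. The samples came from B6D2 mice, with layer IV dissected by hand and total RNA sequenced. Wild-type mice (Otx2 +/+) were sampled at postnatal day 30 (P30) and day 100 (P100), and mice heterozygous for Otx2 at P30. The heterozygotes are labelled Otx2 +/-, and the design text gives them as Otx2 (+/GFP). Tissue of 4 mice was pooled per condition, with 2 libraries per group. The labels do not say whether the 2 libraries came from separate pools, so the spread behind every p-value below may be a technical one. The series holds 8 samples, and its heterozygous P100 pair was not analysed here.

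Kruppel-like factors are transcription factors with a run of zinc fingers at the C-terminal end that binds GC-rich and CACCC-type DNA. The N-terminal parts differ between members and recruit either coactivators or corepressors. Klf9, Klf10, Klf13 and Klf16 carry a motif that binds the Sin3a corepressor. In neurons, Klf4 and Klf9 are known to restrain axon growth, whereas Klf6 and Klf7 favour it. Klf2 and Klf4 are also well known from endothelial cells, where blood flow induces them through the kinase ERK5 and MEF2 factors. Klf9 is a target of glucocorticoid and thyroid hormone receptors, and Klf10 was first described as an early gene of TGF-beta signalling.

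Promoter sequences are shown for the members that differed between groups and for Klf9 and Klf13, whose levels ran closest together. Of the 8 genes, 6 had an entry in the RefSeq promoter table (GRCm38.p6); Klf10 and Klf16 had none. Each line gives the 250 bases before the RefSeq start, 5′ to 3′ on the strand of the gene. Capitals mark the short form of the cyclic AMP response element, TGACG on either strand. The Klf2 window is chr8:72318812-72319061 (plus strand), and its RefSeq start lies downstream of the Ensembl one. The Klf4 window is chr4:55532476-55532725 (minus strand), the Klf6 window chr13:5861239-5861488 (plus strand), the Klf9 window chr19:23140976-23141225 (plus strand) and the Klf13 window chr7:63938916-63939165 (minus strand).
Klf2: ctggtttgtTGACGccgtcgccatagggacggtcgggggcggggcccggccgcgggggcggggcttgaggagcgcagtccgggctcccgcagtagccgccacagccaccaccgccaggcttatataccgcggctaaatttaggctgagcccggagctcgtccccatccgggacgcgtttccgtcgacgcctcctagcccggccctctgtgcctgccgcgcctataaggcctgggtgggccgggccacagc
Klf4: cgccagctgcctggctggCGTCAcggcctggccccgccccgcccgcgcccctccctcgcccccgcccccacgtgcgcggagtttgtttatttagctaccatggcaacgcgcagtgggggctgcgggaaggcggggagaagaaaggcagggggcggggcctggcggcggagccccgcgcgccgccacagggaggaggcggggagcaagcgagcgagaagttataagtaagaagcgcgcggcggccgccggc
Klf6: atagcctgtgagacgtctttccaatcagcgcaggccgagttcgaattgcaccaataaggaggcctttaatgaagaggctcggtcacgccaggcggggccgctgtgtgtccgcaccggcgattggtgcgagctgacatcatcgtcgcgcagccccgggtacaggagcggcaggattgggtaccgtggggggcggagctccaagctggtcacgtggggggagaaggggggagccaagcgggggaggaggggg
Klf9: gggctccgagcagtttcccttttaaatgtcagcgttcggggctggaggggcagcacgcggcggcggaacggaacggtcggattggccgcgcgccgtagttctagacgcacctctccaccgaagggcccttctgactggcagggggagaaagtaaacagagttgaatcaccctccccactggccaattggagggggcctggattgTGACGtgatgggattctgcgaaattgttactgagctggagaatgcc
Klf13: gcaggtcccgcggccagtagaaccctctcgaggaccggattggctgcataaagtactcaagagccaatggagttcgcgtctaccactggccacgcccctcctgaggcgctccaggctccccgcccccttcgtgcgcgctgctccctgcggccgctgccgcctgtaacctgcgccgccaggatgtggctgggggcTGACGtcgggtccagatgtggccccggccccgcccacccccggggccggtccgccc

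TGACG lay once each in the windows of Klf2, Klf4, Klf9 and Klf13 and in neither of the windows of Klf6 and Klf7. In Klf2 and Klf4 it began 241 and 232 bases before the start. In Klf9 and Klf13 it began 46 and 56 bases before it. Of 32851 promoter windows of the same length, 17.8% held it. The full element TGACGTCA, which contains the short form, was in none of the 6 windows and in 1.55% of all windows. The CArG box, the site of serum response factor, was likewise in none of the 6 and in 1.47% of all windows, and the TATA box TATAAA in none and in 12.4%. The GC box GGGCGG was in 5 of the 6, all but Klf9, against 32.7% of all windows, and Klf4 had 4 copies. The CACCC box, the kind of sequence that Kruppel-like factors bind themselves, was in Klf2, Klf7, Klf9 and Klf13, against 52.0% of all windows. All motifs were searched on both strands, and a match of these letters is a description of the window only.

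Totals over the 1 isoform used per gene ran from 11016841 to 15308781 counts per library. Libraries of the same group varied beyond sampling noise (chi-square per degree of freedom 4.42 to 5.78). Neuronal markers were present in every group. Of 3 layer IV markers, Rorb had means of 510.1 to 544.8 CPM (counts relative to the TMM-scaled library total) and passed the test in none of the comparisons, while Rspo1 and Scnn1a differed between groups, as given with the other marker lists. Otx2 had 0 counts in 5 libraries and 73 in heterozygous replicate 2, so that it could not check the genotype labels. That library also held 8966 counts of the choroid plexus gene Ttr, against at most 1 in the others, and the 11 choroid plexus markers summed to 628.4 CPM there and to 1.37 to 2.24 CPM elsewhere. The heterozygous libraries held 784.8 and 924.4 CPM of the female-specific RNA Xist, and the wild-type libraries 0.264 to 0.639 CPM. The Y-linked gene Ddx3y stood at 1.04 to 2.48 CPM in heterozygous and 145.7 to 155.7 CPM in wild-type libraries. Genotype and sex cannot be told apart in these data.

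Levels per kb of transcript (CPM divided by transcript length) set the members in a wide order. In wild-type P30 tissue Klf9 was highest at 101.4 ± 13.6 CPM per kb (SD, n = 2 libraries, as for all means below). Klf10 followed at 44.4, Klf6 at 27.9, Klf13 at 21.3, Klf7 at 11.6, Klf16 at 9.13 and Klf2 at 3.76 CPM per kb. Klf4 was lowest at 1.52 ± 0.779 CPM per kb, 67.0-fold below Klf9. The ranges of neighbours in this order did not overlap. At P100 and in heterozygotes Klf6 stood above Klf10, in each case with separate ranges. At P100 Klf10 and Klf13, at 18.6 and 18.0 CPM per kb, could not be told apart by their ranges. The rest of the order was the same in the 3 groups.

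**Figure D1:**
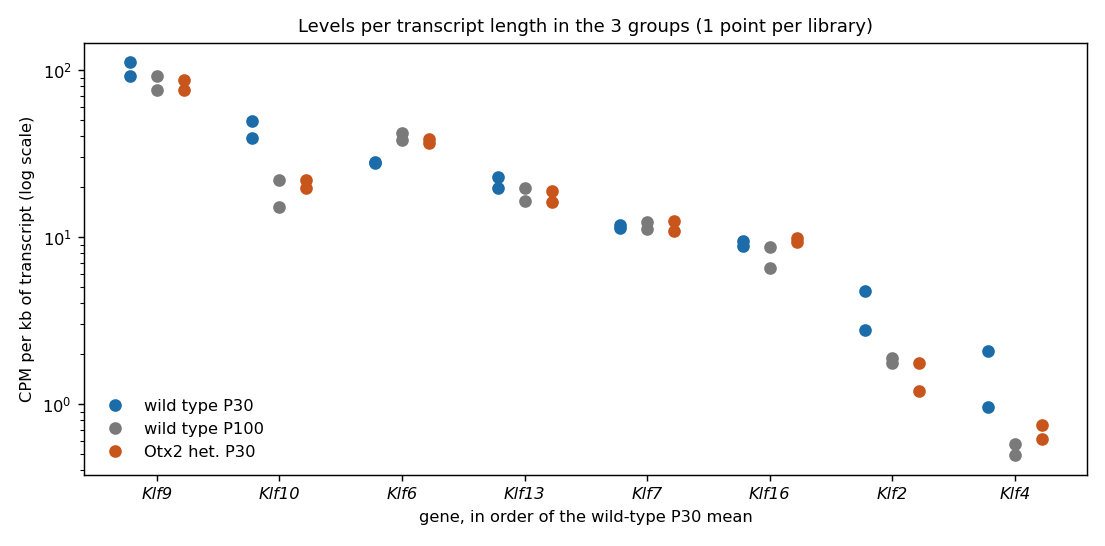
Level per kb of transcript (CPM per kb, log scale) of the 8 Kruppel-like factor genes, 1 point per library, for the 3 groups in colour. Klf9 is at the top of every group and Klf4 at the bottom, and Klf10 stands above Klf6 only in wild-type P30 tissue.

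The first comparison asked which members differ between wild-type mice at P30, within the usual critical period of visual plasticity, and at P100, after it. Klf10, Klf4 and Klf2 fell with age and Klf6 rose. Klf7, Klf9, Klf13 and Klf16 did not pass the test. The 4 calls among 8 members compare with 7.54% of the 15841 genes tested (3.0% higher and 4.54% lower; edgeR quasi-likelihood test, Benjamini-Hochberg adjusted p under 0.05). Because the 8 were chosen with earlier results of these data known, this count is no test of the family. Of 6 other Klf genes tested, 1 was called higher with age and 0 lower. The median log2 difference of the members was -0.27, and that of all genes tested was 0.00056.

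**Figure D2:**
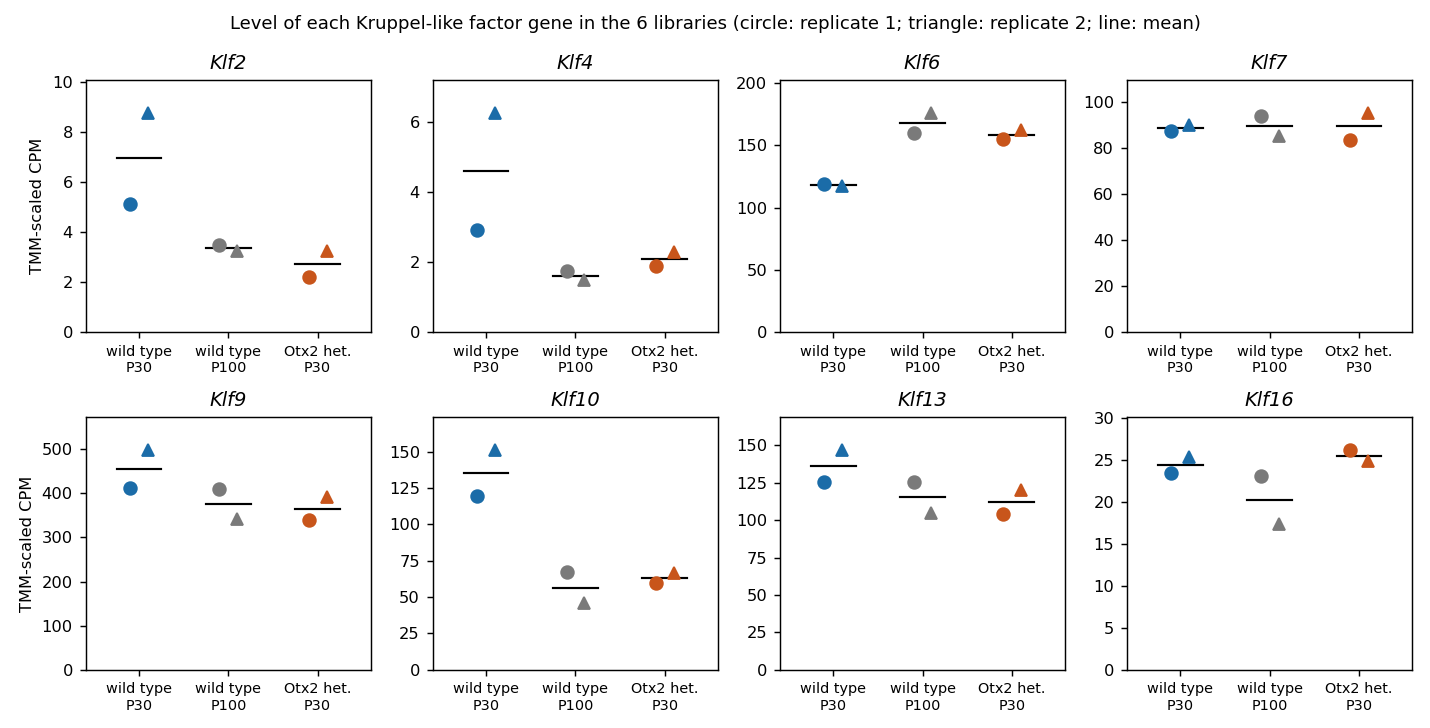
TMM-scaled CPM of each gene in every library; circles are replicate 1, triangles replicate 2 and lines the means of 2 libraries, on axes that start at 0. Klf10 lies at 119.1 and 151.1 CPM in wild-type P30 libraries and between 45.8 and 67.2 CPM in the other 4, and Klf6 lies lowest in the wild-type P30 libraries.

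Klf10 (ENSMUSG00000037465) lies on mm10 at chr15:38294413-38300706, minus strand, over 4 exons. It stood at 119.1 and 151.1 CPM in the 2 wild-type P30 libraries and at 67.2 and 45.8 CPM in the 2 wild-type P100 libraries. Both young libraries lay above both old ones. The mean went from 135.1 ± 22.6 to 56.5 ± 15.1 CPM, a log2 difference of -1.25 (SE 0.15, edgeR adjusted p = 2.15e-04), or 2.38-fold lower. This call held in all 15 alternative analyses, with log2 differences of -1.56 to -1.01. In the authors' deposited table the log2 change of this transcript was -1.26 with an adjusted p of 0.00487.

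Klf6 (ENSMUSG00000000078) lies at chr13:5861482-5870394, plus strand, over 4 exons, and went the other way. It stood at 119.1 and 117.0 CPM at P30 and at 160.2 and 176.2 CPM at P100. Both old libraries lay above both young ones, and the P30 pair differed by a factor of only 1.02. The mean rose from 118.1 ± 1.51 to 168.2 ± 11.3 CPM, a log2 difference of 0.51 (SE 0.07, edgeR adjusted p = 0.00112), or 1.42-fold. This call, too, held in all 15 alternatives (log2 difference 0.44 to 0.58). The authors' deposited table gave a log2 change of 0.51 and an adjusted p of 0.00101. Klf6 was the member with the smallest relative spread at P30, although its level per library was close to that of Klf10.

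Klf4 (ENSMUSG00000003032) lies at chr4:55527143-55532466, minus strand, over 5 exons, and was the least abundant member. Its counts were 32 and 90 at P30 and 24 and 17 at P100, or 2.92 and 6.26 against 1.74 and 1.5 CPM. The groups did not overlap, but the P30 libraries differed 2.14-fold between themselves. The exact Poisson 95% intervals, which cover counting error only, were 2.00 to 4.12 and 5.03 to 7.69 CPM for those 2 libraries. For genes of 2 to 10 CPM the median ratio between these libraries was 1.17. The log2 difference was -1.53 (SE 0.36, edgeR adjusted p = 0.0206), 2.88-fold lower at P100. Without wild-type P30 replicate 2, the higher of the pair, it was -0.84 (adjusted p = 0.256). It also missed the threshold without wild-type P100 replicate 1 (log2 difference -1.65, adjusted p = 0.108) or replicate 2 (-1.43, adjusted p = 0.149). The authors' deposited table had a log2 change of -1.5 and an adjusted p of 0.672 for it.

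Klf2 (ENSMUSG00000055148) lies at chr8:72319033-72321656, plus strand, over 3 exons, and was low as well. Its counts of 56 and 126 at P30 and 48 and 37 at P100 corresponded to 5.11 and 8.76 against 3.47 and 3.26 CPM. Wild-type P30 replicate 2 was again the highest library, 1.71-fold above replicate 1, and the groups did not overlap. The log2 difference was -1.06 (SE 0.28, edgeR adjusted p = 0.0341), 2.09-fold lower at P100. Without wild-type P30 replicate 2 it was -0.60 (adjusted p = 0.316). Leaving out replicate 1 or 2 of wild-type P100 gave -1.12 (adjusted p = 0.141) and -1.02 (adjusted p = 0.176). DESeq2 gave an adjusted p of 0.0786. With counts summed over transcripts edgeR gave 0.0886, although Klf2 has only 1 transcript in the count files and its own counts stayed the same. In the authors' deposited table the adjusted p was 0.572, with a log2 change of -1.04.

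Klf9 (ENSMUSG00000033863, chr19:23141226-23168134, plus strand, 2 exons) was the most abundant member in counts as well as per kb. Its libraries stood at 411.9 and 498.2 CPM at P30 and at 410.8 and 342.4 CPM at P100. The lower P30 library and the higher P100 library were almost level. The log2 difference was -0.27 (SE 0.10, 95% interval -0.49 to -0.05, edgeR adjusted p = 0.126). It was called in 2 of 15 alternatives, without wild-type P30 replicate 1 (-0.40, adjusted p = 0.0457) and with no filter on low counts (-0.28, adjusted p = 0.00251).

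Klf13 (ENSMUSG00000052040, chr7:63886351-63938915, minus strand, 2 exons) had 125.2 and 146.8 CPM at P30 and 125.8 and 105.1 CPM at P100, and its groups overlapped. Its log2 difference was -0.24 (95% interval -0.46 to -0.01, edgeR adjusted p = 0.19). Klf16 (ENSMUSG00000035397, chr10:80567124-80577321, minus strand, 2 exons), first known as a repressor of dopamine receptor promoters, had 23.5 and 25.4 CPM at P30. At P100 it had 23.2 and 17.4 CPM, and the difference was -0.26 (95% interval -0.55 to 0.03, edgeR adjusted p = 0.272). Intervals of this width leave room for falls of about the size of the Klf6 rise in Klf16, and for smaller ones in Klf13. Among the members named above as carrying the Sin3a-binding motif, Klf10 was the one that passed the test. The intervals of Klf9 and Klf13 also lay below 0, and whether Klf10 differs from these members was not tested.

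Klf7 (ENSMUSG00000025959, chr1:64029447-64121491, minus strand, 4 exons) passed the test in none of the comparisons. It had 87.3 and 90.2 CPM at P30, and its P100 libraries, at 93.8 and 85.4 CPM, lay on either side of them. The log2 difference was 0.01 (95% interval -0.17 to 0.20, edgeR adjusted p = 0.948). Of its exon bases 41.8% are shared with Gm13748 and Gm26649 on the opposite strand in the GENCODE M21 annotation. Without a statement on strand, reads of these genes and of Klf7 cannot be told apart, and Gm13748 was itself counted at most once per library. The 3 other Klf7 transcripts, at 7.45 to 18.8 CPM, had log2 ratios of the group means of -0.01 to 0.05 with age. The other 7 members shared no exon base with another gene.

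**Figure D3:**
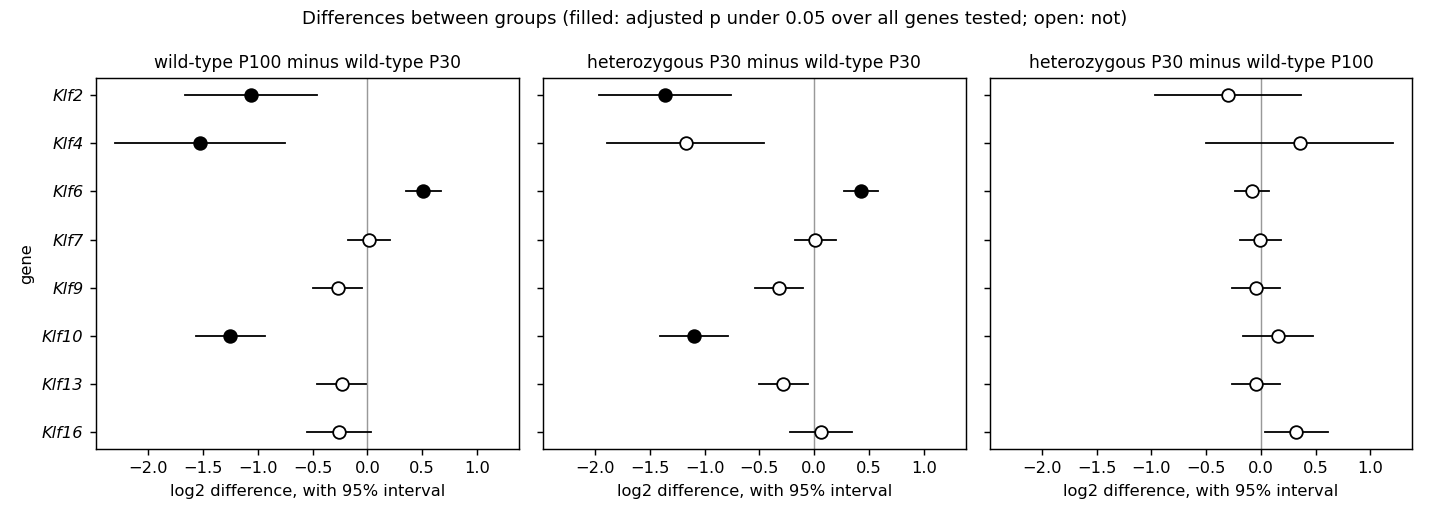
Log2 differences with 95% intervals for the 8 genes in the 3 comparisons; filled points have an adjusted p under 0.05 over all genes tested. Klf6 lies right of 0 and Klf10 left of it in both comparisons with wild-type P30, and no point is filled between heterozygous P30 and wild-type P100.

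At P30, the second comparison took heterozygotes against wild type. It shares the wild-type P30 libraries with the first, so the 2 are not independent. Klf10 and Klf2 were lower in heterozygotes and Klf6 was higher. These 3 calls among 8 compare with 3.23% of all genes tested (0.903% higher and 2.32% lower). As with age, the choice of the 8 means that this count is no test of the family. Of 6 other Klf genes tested, 0 were called. The median log2 difference was -0.30 for the members and 0.0029 for all genes tested. Every difference here is also one between libraries rich in Xist and libraries rich in Y-linked transcripts.

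Klf10 measured 59.9 and 66.5 CPM in heterozygotes, against 119.1 and 151.1 CPM in wild type. The groups were far apart, and heterozygotes reached 46.8% of the wild-type mean. The log2 difference was -1.10 (SE 0.14, edgeR adjusted p = 8.77e-04), and the call held in all 15 alternatives (-1.26 to -0.91). The authors' deposited table gave a log2 change of -1.09 with an adjusted p of 0.0638 for it.

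Klf6 stood at 155.1 and 162.1 CPM in heterozygotes, against 119.1 and 117.0 CPM in wild type. Both heterozygous libraries were higher than both wild-type ones, with a log2 difference of 0.43 (SE 0.07, edgeR adjusted p = 0.00586), or 1.34-fold. The adjusted p was 0.0573 without wild-type P30 replicate 2 and 0.0503 without heterozygous replicate 2, with log2 differences of 0.41 and 0.39. In the authors' deposited table Klf6 was the single member under an adjusted p of 0.05 in this comparison, at 0.0040.

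Klf2 had 33 and 50 counts in heterozygotes, or 2.21 and 3.25 CPM, against 5.11 and 8.76 CPM in wild type. The groups did not overlap, and the log2 difference was -1.36 (SE 0.28, edgeR adjusted p = 0.0169), 2.57-fold lower. Without wild-type P30 replicate 2 it was -0.90 (adjusted p = 0.224), and without heterozygous replicate 1 it was -1.11 (adjusted p = 0.135). Counts summed over transcripts, which leave those of the 1 Klf2 transcript unchanged, gave an edgeR adjusted p of 0.0712.

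Klf4 missed the threshold here. Its 28 and 35 counts, or 1.88 and 2.28 CPM, lay below the wild-type 2.92 and 6.26 CPM, with a log2 difference of -1.17 (95% interval -1.89 to -0.46, edgeR adjusted p = 0.0754). It was called without wild-type P30 replicate 1 (-1.59, adjusted p = 0.0121) and with no filter on low counts (adjusted p = 6.77e-04). Without wild-type P30 replicate 2 the difference was -0.49 (adjusted p = 0.607).

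Klf9 had 339.5 and 390.7 CPM in heterozygotes and a log2 difference of -0.32 (95% interval -0.54 to -0.10, edgeR adjusted p = 0.115). It was called without wild-type P30 replicate 1 (-0.45, adjusted p = 0.0383) and with no filter on low counts (adjusted p = 4.22e-04). Klf13 had 104.2 and 120.1 CPM and a difference of -0.28 (95% interval -0.50 to -0.06, edgeR adjusted p = 0.168), called only with no filter (adjusted p = 0.036). Klf16 at 26.2 and 24.9 CPM and Klf7 at 83.4 and 95.4 CPM overlapped with wild type. Their log2 differences were 0.06 (95% interval -0.22 to 0.34) and 0.01 (-0.18 to 0.20).

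In both comparisons 6 of the 8 members had groups that did not overlap, 1 higher and 5 lower. This held for 51.2% of all genes tested with age (25.5% higher, 25.7% lower) and for 48.9% with genotype (24.5% higher, 24.4% lower). With 2 libraries per group, lack of overlap alone is thus common.

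**Figure D4:**
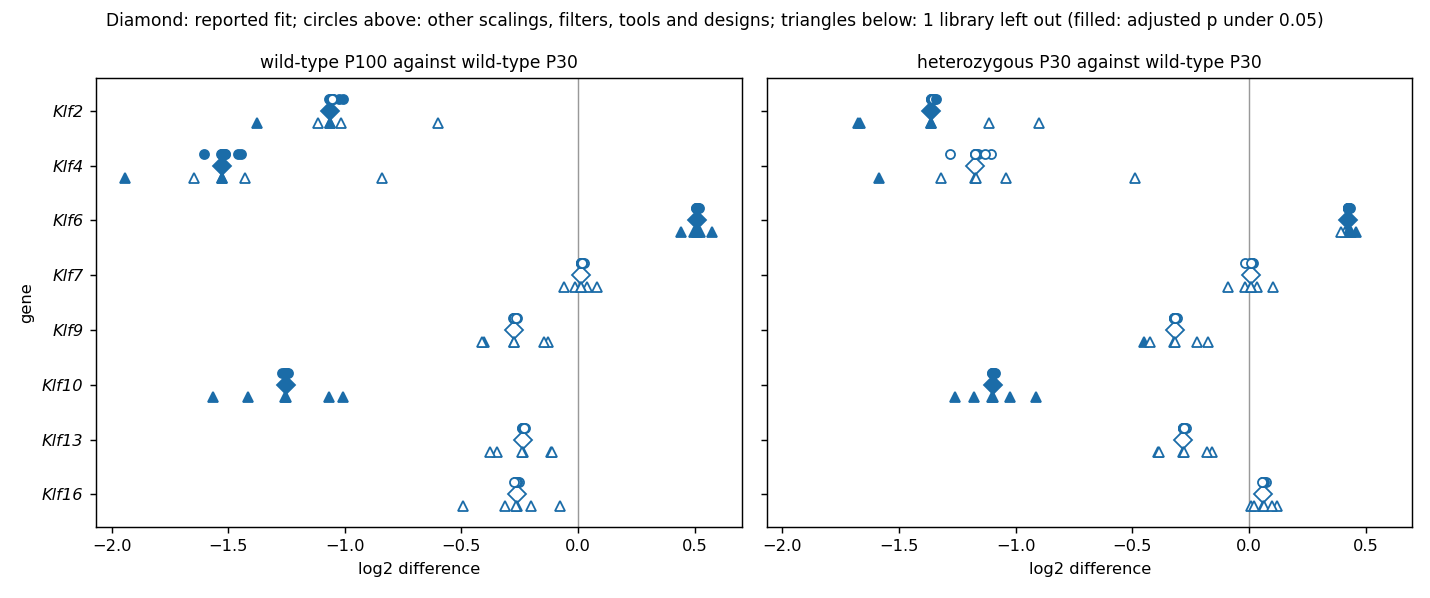
Log2 differences of each gene under every analysis run; the diamond is the reported one, circles are other scalings, filters, tools and designs, and triangles are analyses without 1 library (filled: adjusted p under 0.05). Klf10 is filled throughout in both panels and Klf6 throughout in the age panel, whereas the triangles of Klf2 and Klf4 reach from -1.94 to -0.49 and are open in part.

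The third comparison set heterozygous P30 against wild-type P100 tissue. Age, genotype and sex-linked transcripts all differ between these groups. Its libraries are those of the first and second comparisons, so it is not independent of them. None of the 8 members passed in edgeR, against 5.10% of all genes tested (2.44% higher and 2.66% lower), and none in DESeq2 or limma-voom. At an unadjusted p under 0.05 there was 1 member, Klf16, in edgeR and limma-voom and 0 in DESeq2. Klf10 had a log2 difference of 0.15 (95% interval -0.17 to 0.47) and Klf6 of -0.08 (-0.24 to 0.07). The intervals of Klf2 (-0.97 to 0.37) and Klf4 (-0.50 to 1.21) were wider. Klf16 was higher in both heterozygous libraries than in both P100 libraries, with a difference of 0.32 (SE 0.13, edgeR adjusted p = 0.197). In all, 3 of the 8 members had groups that did not overlap, 2 higher and 1 lower in heterozygotes, against 50.5% of all genes tested (25.4% higher and 25% lower).

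By their profile over the 6 libraries, the members fell into unlike shapes. Likeness was measured as the root mean square difference between log2 CPM values, each centred on the mean of the gene, among about 10540 genes of 5 CPM or more. It is a description over 6 libraries that share the same depths. Klf9 and Klf13 were each the gene nearest to the other, at 0.021 log2 units. The nearest genes to Klf10 were Pvr (0.12), Nab2 (0.12), which encodes a corepressor of Egr factors, and the synaptic scaffold gene Homer1 (0.13). Klf2 lay nearest to the prostaglandin synthase gene Ptgs2 (0.079), then Rnf39 (0.16) and Frmd6 (0.18). Klf4 lay nearest to Fosl2 (0.18), a gene of the AP-1 family, then B4galt1 and Nab2 (both 0.21). Klf6 was nearest to Zfp120 (0.039), Tnip2 (0.043) and Pskh1 (0.046), Klf16 to Eps8 (0.018), and Klf7 to Chst1 (0.025).

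The files hold 9 further Klf genes. Klf1, Klf14 and Klf17 had at most 8 counts in any library and were not tested. Of the other 6, Klf12, which encodes a repressor, rose with age, from 67.2 and 73.8 to 95.8 and 88.0 CPM (log2 difference 0.38, SE 0.09, edgeR adjusted p = 0.0174). It missed the threshold with counts summed over transcripts and without either wild-type P100 library or wild-type P30 replicate 1, with an adjusted p of up to 0.135. None of the 6 passed between genotypes in edgeR, DESeq2 or limma-voom, with 2 lower at an unadjusted p under 0.05 in edgeR. None of 7 tested Sp factors, the nearest relatives of the family, passed with age or genotype by any of these tools. At an unadjusted p under 0.05, 2 were higher with age and 0 with genotype in edgeR. At least 3180 of the 15841 genes tested met this unadjusted threshold with age, and at least 1547 with genotype, in edgeR. Whether the 8 members differ from these relatives was not tested.

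Sin3a and the other cofactors of the family made up a further list. None of its 15 corepressor, coactivator and ubiquitin ligase genes passed with age or genotype in edgeR, DESeq2 or limma-voom. In edgeR 0 and 3 had an unadjusted p under 0.05, as did at least 3180 and 1547 of the 15841 genes tested. Between heterozygous P30 and wild-type P100 tissue Fbxw7, a ubiquitin ligase gene, was higher (0.28, edgeR adjusted p = 0.0328). That call was lost without either library of either group (adjusted p up to 0.209).

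Of 22 tested regulators known to act upstream of the family, 3 rose and 2 fell with age. The shares of all genes tested were 3.0% higher and 4.54% lower, and this list was chosen with earlier results of these data known. Smad3, a transducer of TGF-beta signals, rose by a log2 difference of 0.80 (edgeR adjusted p = 0.0014), and the TGF-beta receptor gene Tgfbr1 fell by 0.45 (adjusted p = 0.0079). The hormone receptor genes Thrb and Nr3c2 rose, by 0.39 and 0.45 (adjusted p = 0.012 for both in edgeR). The Tgfbr1 call was lost without wild-type P100 replicate 2 (adjusted p = 0.0792). Nr3c2 missed the threshold without wild-type P30 replicate 1 or wild-type P100 replicate 2 (up to 0.0811), and the Thrb call without either wild-type P30 library or wild-type P100 replicate 1 (up to 0.124). None of the 22 passed between genotypes by any of the 3 tools. At an unadjusted p under 0.05 in edgeR there were 7, against at least 1547 of the 15841 genes tested. Against wild-type P100, heterozygotes had less Thrb (-0.58, edgeR adjusted p = 0.0013) and more of the MEF2 gene Mef2c (0.26, edgeR adjusted p = 0.0334, lost without either library of either group and with summed transcripts).

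Genes known as targets of Kruppel-like factors in other tissues fell for 3 of 13 tested with age and rose for none. Over all genes tested, 4.54% were called lower and 3.0% higher. The median log2 difference was -0.26 for the list and 0.00056 over all genes. The list was not split by the member that acts on a gene or by the direction of that action. Smad7, an inhibitor of TGF-beta signalling, fell from 30.6 and 32.0 to 19.8 and 20.5 CPM (log2 difference -0.64, edgeR adjusted p = 0.0033) and held in all 15 alternatives. The cell cycle inhibitor gene Cdkn1a fell from 10.1 and 11.7 to 4.49 CPM in each P100 library (-1.29, edgeR adjusted p = 0.0078). It missed the threshold without wild-type P30 replicate 2 or either wild-type P100 library (adjusted p up to 0.0717). The axon adhesion gene L1cam fell by 0.30 (edgeR adjusted p = 0.0299), and its call was lost in 5 of 15 alternatives. Between genotypes only Smad7 of the 13 passed, with 20.04 and 19.1 CPM in heterozygotes (-0.68, edgeR adjusted p = 0.0032, held in all 15 alternatives), and the list median was 0.05. Against wild-type P100, heterozygotes had more L1cam, Drd1a and Gap43 (log2 differences 0.38, 0.66 and 0.42, edgeR adjusted p = 0.0126 to 0.0282). Each of these 3 calls was lost without wild-type P100 replicate 2, among others.

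Other groups of transcripts moved in the same libraries. Of 15 early activity genes, 15 were lower with age and 15 were lower in heterozygotes in edgeR (14 and 13 in DESeq2). The shares of all genes tested called lower were 4.54% and 2.32%. Heterozygotes had more of 5 of the 15 than wild-type P100 tissue in edgeR, and of 3 in DESeq2. The summed level of the 15 was 2667 and 3228 CPM in wild-type P30 libraries 1 and 2. It was 573.7 to 655.3 CPM at P100 and 554.4 to 858.3 CPM in heterozygotes. Wild-type P30 replicate 2, highest in this sum, was also the highest library of Klf2, Klf4, Klf9, Klf10 and Klf13. The largest part of the sum was Arc, with 1213 CPM in replicate 1 and 1573 CPM in replicate 2. Npas4 (60.0 and 45.7 CPM), Ier2 (13.8 and 9.18 CPM) and Btg2 (94.1 and 67.2 CPM) went the other way within that pair. Whether the activity genes and the Klf levels are linked was not tested. Of 12 endothelial markers, 2 were lower with age (Cldn5 and Kdr) and 1 with genotype (Cldn5). Their sum was 266.7 to 295.0 CPM in wild-type P30, 233.4 to 249.4 CPM at P100 and 246.7 to 247.2 CPM in heterozygotes, and none of the 12 was at 0. Wild-type P30 replicate 1 had the larger endothelial sum of its pair, and the smaller Klf2 and Klf4 levels. Single endothelial markers went both ways within that pair. Kdr had 28.8 CPM in replicate 1 and 20.2 CPM in replicate 2, and Flt1 had 47.6 and 54.8 CPM. Whether endothelial content and these Klf levels are linked was not tested. The Cldn5 call with age was lost in 6 of 15 alternatives and the Kdr call in 2. Oligodendrocyte markers were lower for 9 of 10 with age and 10 of 10 with genotype, with sums of 3190 to 3315, 1563 to 1851 and 2291 to 2352 CPM in the 3 groups. Microglial markers were lower for 2 of 10 with age and 1 of 10 with genotype, and astrocyte markers for 2 of 8 in each. None of 5 meningeal markers passed in edgeR, DESeq2 or limma-voom (1 and 0 at an unadjusted p under 0.05). At least 3180 and 1547 of the 15841 genes tested met that unadjusted threshold in edgeR.

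Markers of neurons, layers and blood differed as well. The layer IV marker Rspo1 rose with age (log2 difference 0.60, edgeR adjusted p = 0.0473), a call lost in 5 of 15 alternatives. Compared with wild-type P100, heterozygotes had less Rspo1 (-0.98, edgeR adjusted p = 0.00539; 0.0726 without wild-type P100 replicate 2). They also had less Scnn1a (-1.07, edgeR adjusted p = 0.00954), a call lost without wild-type P100 replicate 1 (adjusted p = 0.118) or heterozygous replicate 1 (0.0597). Of 5 neuronal markers, the glutamate transporter gene Slc17a7 was the one that passed the test in edgeR. It was lower at P100 than at P30 (-0.35, edgeR adjusted p = 0.00465, held in all 15 alternatives) and higher in heterozygotes than at P100 (0.28, edgeR adjusted p = 0.0183, lost without either library of either group). In the latter comparison DESeq2 and limma-voom each also called 1 neuronal marker lower. Of 5 tested markers of other layers, Etv1 was higher in heterozygotes than in wild type at P30 (0.55, edgeR adjusted p = 0.0473, lost in 4 of 15 alternatives). It was also higher than in wild type at P100 (0.98, edgeR adjusted p = 0.00147, held in all 15). Without passing, Fezf2, Foxp2, Bcl11b and Tle4 differed between genotypes at P30 by 0.50, 0.50, 0.46 and 0.02. The layer IV markers Scnn1a, Rspo1 and Rorb differed there by -0.72, -0.38 and -0.10, also without passing. Of 3 tested blood genes, Alas2 was lower at P100 than at P30 (-1.14, edgeR adjusted p = 0.0209), a call lost without wild-type P30 replicate 1 or either P100 library (up to 0.123). The blood genes summed to 14.1 to 19.3 CPM in wild-type P30, 8.61 to 9.77 CPM at P100 and 8.24 to 16.5 CPM in heterozygotes. In bulk tissue, fewer cells of a type and less RNA per cell cannot be told apart. The part of these groups in the Klf differences was not tested. Without heterozygous replicate 2, the library with choroid plexus transcripts, Klf10 differed between genotypes by -1.18 log2 units and Klf2 by -1.67 log2 units. Klf6 differed by 0.39 log2 units there, and of the genotype calls that of Klf6 was lost.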

How the data were processed

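Count files of 6 of the 8 samples were analysed. The authors deposited raw read counts of 95533 Ensembl transcripts for each of the 6. Bowtie, HTSeq, mm10 and DESeq 1.8.3 are named in the submitters' processing notes, while settings and strandedness are not given in the sources used here. Tables of the authors' own comparisons, used where named, held per the file headers a mean signal (scaled counts), fold ratios, log2 changes and p-values. Isoforms of a gene share reads, so 1 isoform per gene was used; 85864 transcripts had a gene, and the counts of the rest (13.8 to 14.1% per library) were left out. Lengths and positions came from GENCODE M21 (GRCm38), by transcript ID.

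After filterByExpr (minimum count 10, total 15) and TMM scaling, the 3 groups given by the labels were fitted with edgeR 4.0.16 (R 4.3.3) by quasi-likelihood, with 3 residual degrees of freedom. Benjamini-Hochberg adjustment ran over all genes, threshold 0.05. Alternatives covered scaling, filters, DESeq2 1.42.0, limma-voom (limma 3.58.1), only the libraries compared, summed transcripts, a replicate block and leaving out each library.

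The members and gene lists were chosen with earlier results of these data known. The members were all described; of each other list, up to 4 genes past the threshold with the smallest p were eligible to be named per comparison, except for the activity and marker lists, given mainly as counts. Srf, which encodes serum response factor, was the fifth upstream regulator called. It fell with age (log2 difference -0.45, edgeR adjusted p = 0.0263), and that call was not followed over the alternatives.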

Additional observations from a re-analysis of the deposited data

How the results depend on the processing

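The Klf10 calls with age and genotype and the Klf6 call with age held in all 15 alternatives. Over the 3 comparisons, 325 of 358 member values kept their direction and side of the threshold. With no filter on low counts, genes called higher and lower were 764 and 1096 with age, 392 and 728 with genotype, and 758 and 715 between heterozygous P30 and wild-type P100, and 5 members were lower with genotype. DESeq2 called 295 genes higher with age and 94 with genotype, and 1 member lower with genotype, where it gave Klf2 and Klf4 no adjusted p. Counts summed over transcripts gave 297 genes higher with age, 71 higher and 192 lower with genotype, 246 higher and 256 lower in the third comparison, and 1 member lower with genotype. The cause was not tested.

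Leaving out 1 library left 118 to 417 genes higher and 233 to 661 lower with age, 52 to 116 and 129 to 376 with genotype, and 120 to 469 and 135 to 473 in the third comparison, partly because a group then had 1 library, assumed to vary like the others. Members called lower ran from 1 to 4 in the first comparison and from 1 to 4 in the second, and members called higher in the second from 0 to 1.

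Differences near 0 changed sign without being called. Leaving out 1 library moved Klf7 over -0.059 to 0.081 with age, -0.091 to 0.103 with genotype and -0.104 to 0.089 in the third comparison. There Klf9 ran over -0.171 to 0.094, Klf10 over -0.089 to 0.464 and Klf13 over -0.167 to 0.095. Klf7 was at -0.018 with genotype with summed transcripts, and at 0.0014 in the third comparison with no filter.

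The replicate block gave 526 genes higher and 794 lower with age and 192 and 450 with genotype, and changed no call of a member. Same-numbered libraries shared only a number: their deviations correlated at -0.0061, 0.088 and -0.0025. Depth limits Klf2 and Klf4, with 17 to 126 counts per library.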
